A study of Homo sapiens with 3 samples.

Results

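The axon guidance ligands and receptors were examined as a group in UM-UC-3 cells, a long-established line grown from a human bladder carcinoma. Members were the rows of the deposited gene table whose symbol belonged to the Eph receptors (EPHA, EPHB), the ephrins (EFNA, EFNB), the semaphorins (SEMA3 to SEMA7), the plexins (PLXNA to PLXND), the SLIT ligands, the ROBO receptors, the netrins NTN1, NTN3, NTN4 and NTN5, or the UNC5 receptors. This gave 66 of 50867 genes, 35 ligands and 31 receptors. Members were taken by name, and the set was chosen with earlier results of these data known. Expression was measured by sequencing of polyA+ RNA in 3 libraries. The group shControl (n = 1) carried a lentiviral scramble hairpin, and the group shBLACAT2 (n = 2) carried either of 2 lentiviral hairpins that target BLACAT2, a long non-coding RNA, with 1 library per hairpin, called shRNA 1 and shRNA 2 here. All 3 cell populations came from the same line and had been under puromycin for 2 weeks. The labels name no replicate cultures of a hairpin. The p-values measure only the spread between the 2 hairpin libraries, in which hairpin and technical differences cannot be told apart. A fold for either hairpin alone has no replicate check.

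Axon guidance genes encode short-range and secreted cues and the receptors that read them on a growing axon, and the same pairs act in epithelia, vessels and tumours. Ephrins sit on the cell surface, by a lipid anchor (A class) or a transmembrane segment (B class), and signal through Eph receptor tyrosine kinases on the touching cell, often also back into their own cell. Semaphorins act through plexins, with neuropilins as co-receptors for most of class 3. SLIT proteins are secreted ligands of ROBO receptors, and netrins act through DCC and UNC5 receptors.

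Values are given in the order control, shRNA 1, shRNA 2 throughout. The libraries held 16424422, 17670199 and 16216947 counts. The target, listed as LINC00958, had 938, 816 and 1062 counts. Its scaled level was 0.735 of the control with shRNA 1 (95% counting interval 0.668 to 0.808) and 0.996 with shRNA 2 (0.911 to 1.09), with an adjusted p of 0.913 by edgeR for both against the control (0.763 to 1.00 over the alternatives). The depletion named in the labels was therefore not detected in the library labelled shRNA 2, and each direction below is that of a labelled library. Of 14 urothelial and epithelial markers 11 were measured, with KRT20 at 0 counts in every library and UPK1A and UPK3A at 0 or 1 count. The measured ones included CDH1 (1877, 5201 and 4565 counts), UPK1B (306, 2311 and 923) and UPK2 (35, 108 and 104), each past 2-fold above the control in both hairpin libraries, and KRT5 (5590, 6605 and 1707). The abundant keratins KRT7 (log2 folds −0.22 and −0.78), KRT8 (0.16 and −0.51) and KRT18 (−0.26 and −0.52) were within 2-fold. Neuronal markers summed to between 1.26 and 1.62 FPKM (fragments per kilobase of transcript, scaled to library size by the authors) and endothelial markers to between 0.455 and 1.11, against 309 to 454 for the epithelial list. Of the neuronal list SYT1 (45, 16 and 17 counts), TUBB3 (37, 10 and 13), SNAP25 (15, 4 and 3) and SYN1 (16, 5 and 11) were lower with both hairpins. MAP2 (153, 303 and 287) and RBFOX3 (3, 5 and 9) were higher with both, NEFL had 17, 17 and 40 counts and STMN2 0, 1 and 0. The fibroblast list summed to 1.15, 0.0903 and 0.213 FPKM, of which PDGFRB, the 1 measured marker of its 6, made 0.915, 0.0839 and 0.189. The leukocyte list summed to 14.2, 2.52 and 7.69, of which CSF1R alone made 13.7, 2.23 and 4.79 and ITGAM 0.162, 0.0477 and 2.49, with CD68 at 0 in every library. The part of these markers in the results below was not tested.

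In the control, the most abundant members were the receptor EPHA2 (62.5 FPKM), the plexin PLXNB2 (26.7), the receptor EPHB2 (26.7), the ligand EFNA1 (26.04), the semaphorins SEMA7A (22.5) and SEMA3C (21.4) and the ephrins EFNB1 (20.5) and EFNB3 (20.0). Receptors summed to 162 FPKM and ligands to 161 in the control. With shRNA 1 the sums were 173 for receptors and 111 for ligands, and with shRNA 2 they were 235 and 143. FPKM carries the authors' scaling to library size and not the scaling behind the folds below. The direction of small differences between libraries in such sums can depend on that choice. For example, EPHA2 stood at 62.5, 81.3 and 111 FPKM, while its scaled ratios to the control were 1.18 and 1.54. EPHA2 made up 38.7% of the receptor sum in the control and 47.1% in each hairpin library. The leading ligand was a different gene in each library, namely EFNA1 (16.2% of the ligand sum) in the control, EFNB3 (11.9%) with shRNA 1 and NTN4 (16.3%) with shRNA 2.

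**Figure D1:**
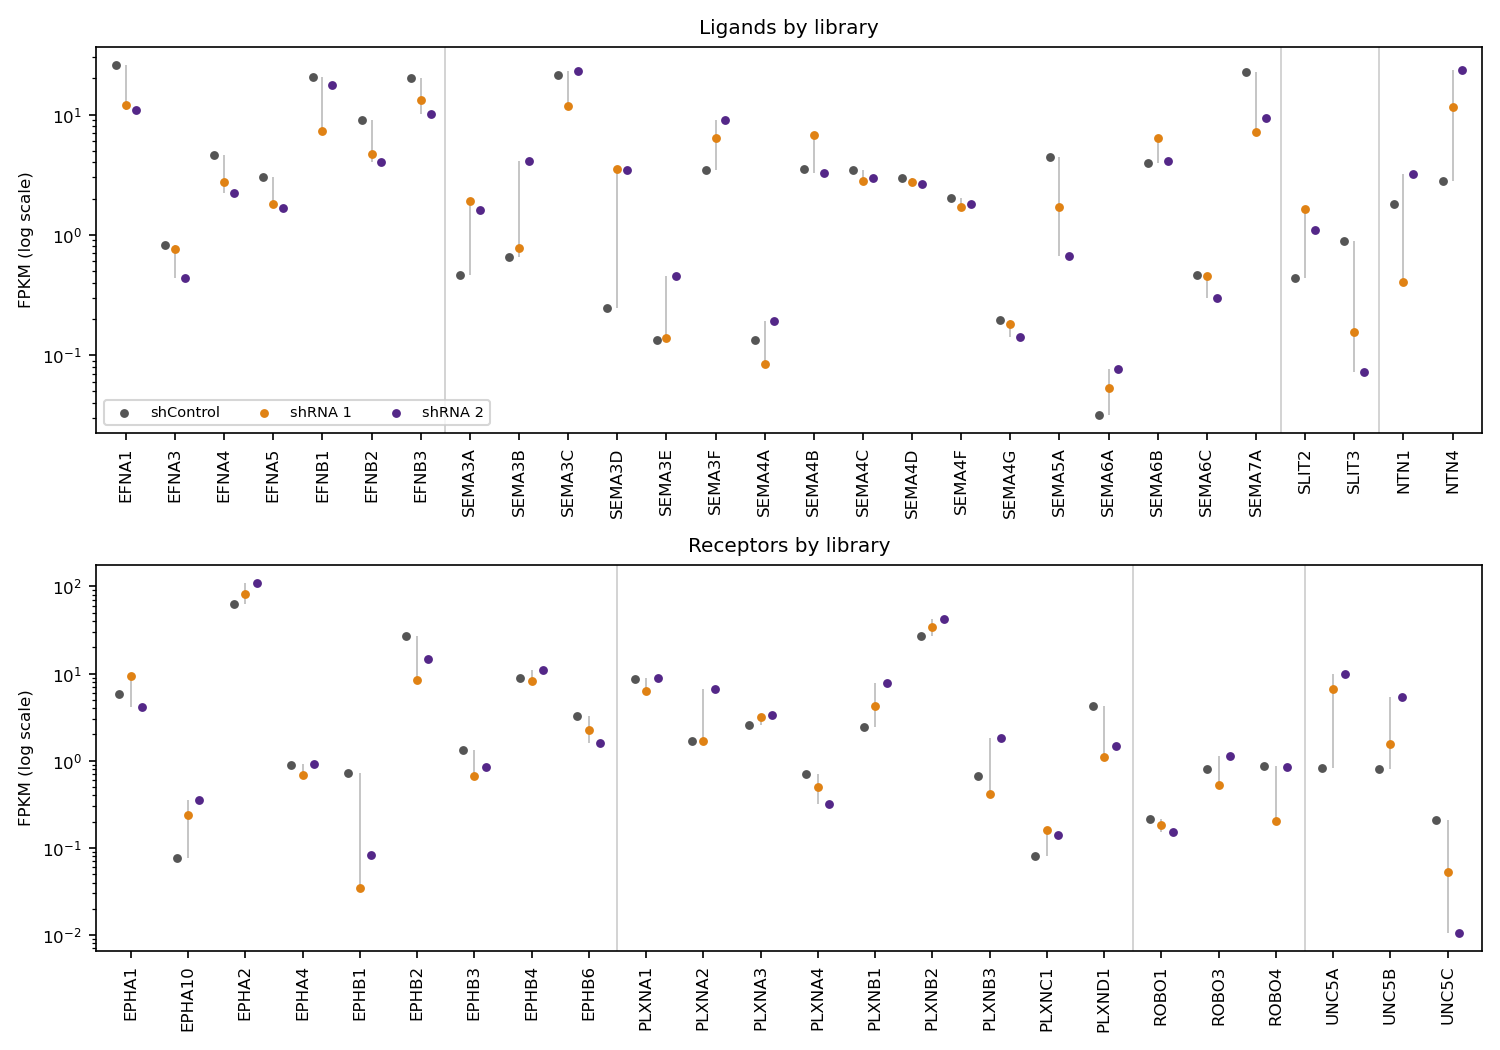
FPKM on a log scale for the 28 measured ligands (upper panel) and 24 measured receptors (lower panel), 1 point per library, with a grey line from the lowest to the highest library and family borders as vertical lines. EPHA2 is highest in all 3 libraries (62.5, 81.3 and 111 FPKM), and all 7 ephrins have their highest point in the control.

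A total of 52 members had a mean of at least 1 CPM (counts scaled to library size) over the 3 libraries and were measured, and 14 were under that level. A gene was counted when its scaled level was at least 2-fold away from the control in the same direction with both hairpins. In this sense 9 measured members were lower and 6 higher, against 4.50% lower and 5.29% higher among all 15132 genes tested. Together these 15 members were 28.8% of those measured, against 9.79% of all genes tested and 9.66% of the protein-coding genes among them. The set itself was chosen with earlier results of these data known. Of the 9 lower members EPHB1 and UNC5C reached 1 CPM in the control only, and of the 6 higher members EPHA10 reached it with the hairpins only. A further 18 members (34.6%) passed this size with 1 hairpin and not the other. None passed it in opposite directions (0.687% of all genes), and 19 were within 2-fold with both, as were 73.5% of all genes. With at least 1 hairpin 33 members passed, or 63.5%, against 26.5% of all genes. The median size of the mean log2 fold was 0.95 over the measured members and 0.36 over all genes, while the signed medians were −0.36 with shRNA 1 and −0.19 with shRNA 2, beside 0.01 and 0.04 for all genes. In bulk RNA, fewer cells of a type and less RNA per cell cannot be told apart.

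No measured member passed edgeR's quasi-likelihood test of both hairpin libraries against the control at an adjusted p of 0.05, which 0.0397% of all genes passed. The lowest adjusted p values by edgeR were 0.0766 for SEMA3D and 0.0917 for UNC5A. At an unadjusted p below 0.05, 17 members passed (10.2% of all genes), 8 of 50 passed with DESeq2's adjusted p (3.65% of all genes) and none with limma. The count at least 2-fold lower was 15 on the shRNA 2 library alone and 14 on the shRNA 1 library alone, and the count higher was 13 and 6. Among all genes 8.76% and 7.38% were lower and 13.0% and 7.92% higher by that size with shRNA 2 and shRNA 1.

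**Figure D2:**
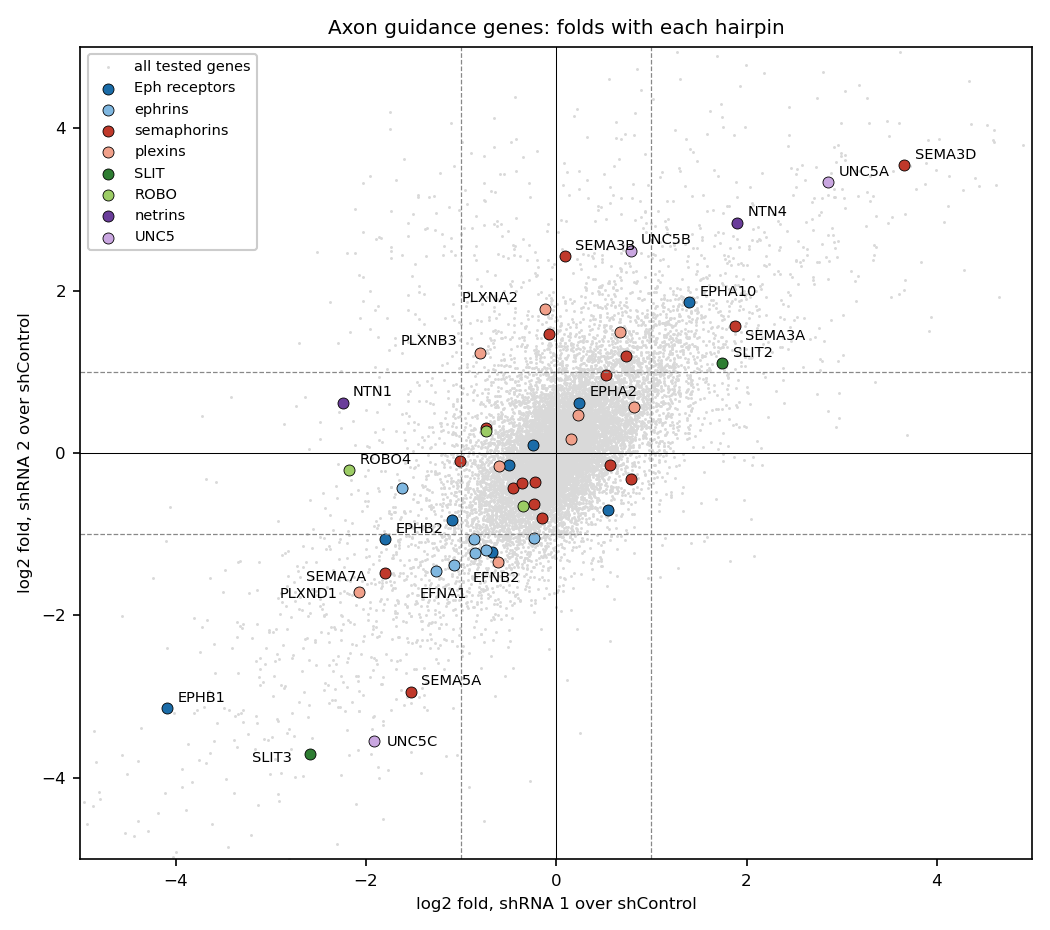
Log2 fold over the control with shRNA 1 (horizontal axis) and shRNA 2 (vertical axis) for the 52 measured members, coloured by family, over all tested genes in grey, with dashed lines at 2-fold and axes ending at 5 (61 of 15132 genes lie beyond). SEMA3D (3.66 and 3.55) and UNC5A (2.86 and 3.33) lie at the upper right, EPHB1 (−4.09 and −3.14) and SLIT3 (−2.59 and −3.71) at the lower left, and both axes share the 1 control library.

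The ephrins, the ligands of the Eph receptors, were all below the control. All 7 measured ephrins had a level below the control with both hairpins, under each of the 3 scalings tried. With the scaling behind the folds, 34.1% of all genes were below it with both. Summed over the family, ephrin FPKM was 84.3, 42.4 and 46.9. EFNA1 (ENSG00000169242; hg38, chromosome 1, 155127460 to 155134857, plus strand), the main ligand of EPHA2 in epithelia, had 1875, 923 and 780 counts. The level was 0.416 of the control with shRNA 1 (counting interval 0.384 to 0.450) and 0.366 with shRNA 2 (0.336 to 0.398), a mean log2 fold of −1.36 ± 0.13 (SD, n = 2), with an edgeR adjusted p of 0.193. EFNB2, a transmembrane ligand known from arterial endothelium, had 664, 371 and 289 counts, with log2 folds of −1.08 and −1.38 (−0.94 with shRNA 1 when scaled by library totals, under the size rule). Both hairpin libraries were below the control by more than they differed from each other for either gene, and neither passed the group test.

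The other ephrins passed 2-fold with 1 hairpin only. EFNA4, EFNA5, EFNB3 and EFNA3 did so with shRNA 2, at log2 folds of −1.23, −1.06, −1.20 and −1.05, against −0.85, −0.87, −0.74 and −0.23 with shRNA 1. With library totals as the scaling EFNA5 (−0.85), EFNB3 (−0.99) and EFNA3 (−0.86) were within 2-fold with shRNA 2. EFNB1, a ligand of EPHB receptors encoded on chromosome X, did so with shRNA 1 only, at 1114, 427 and 943 counts. Its level was 2.30-fold higher with shRNA 2 than with shRNA 1 (counting interval 2.05 to 2.58). EFNA4, EFNA3 and EFNA1 are neighbours on chromosome 1, 9.32 and 39.9 kb apart, and EFNA3 was the least abundant of them (0.822, 0.764 and 0.436 FPKM).

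Of the 4 measured A-class Eph receptors, EPHA2 and EPHA10 were above the control with both hairpins and EPHA1 lay on either side of it. EPHA4 was below it with both, though not when scaled by library totals. Of the 5 B-class receptors 4 were below it with both. Among all genes 37.1% were above and 34.1% below with both. EPHA2 (ENSG00000142627; chromosome 1, 16124337 to 16156087, minus strand), a receptor that is abundant in many carcinomas, had 4770, 6671 and 8341 counts. The ratios to the control were 1.18 (counting interval 1.14 to 1.23) and 1.54 (1.48 to 1.59), the log2 fold averaged 0.43 ± 0.27 (SD, n = 2), with an edgeR adjusted p of 0.832. Within each library, where scaling plays no part, EPHA2 stood at 2.40, 6.82 and 10.1 times the FPKM of its ligand EFNA1. EPHA2 thus made 56.7%, 73.1% and 76.6% of all Eph receptor FPKM in these libraries. EPHB2 (ENSG00000133216; chromosome 1, 22710839 to 22921500, plus strand), a receptor for B-class ephrins, went from 26.7 FPKM in the control to 8.42 and 14.7. Its counts of 6358, 2161 and 3462 gave log2 folds of −1.80 and −1.06, with an edgeR adjusted p of 0.332. With library totals as the scaling its shRNA 2 fold was −0.86, under the size rule.

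EPHB1 (ENSG00000154928; chromosome 3, 134597801 to 135260467, plus strand), a receptor of the same class, had 115, 6 and 13 counts. Its level was 22.7-fold lower with shRNA 1 (ratio 0.0441, counting interval 0.0158 to 0.0989) and 10.1-fold lower with shRNA 2 (0.0994, 0.0514 to 0.177), with an edgeR adjusted p of 0.143. KY, a gene on the opposite strand that overlaps the EPHB1 span, had 37, 0 and 1 counts, and since strand use in the counting is not given, reads of the 2 genes cannot be told apart. EPHB3 passed 2-fold with shRNA 1 only (112, 61 and 71 counts, log2 folds −1.09 and −0.82, the first −0.96 with library totals) and EPHB6, which has no active kinase, with shRNA 2 only (509, 377 and 248 counts, −0.67 and −1.22). EPHB4, the main receptor of EFNB2 in veins, had 1390, 1388 and 1692 counts and log2 folds of −0.24 and 0.10. Reads of EPHB3 are uncertain because it overlaps EIF2B5 on the same strand (965, 1470 and 964 counts), and those of EPHB4 because it overlaps SLC12A9 on the opposite strand (530, 800 and 709). EPHB4 stood at 0.335, 0.985 and 0.750 of the EPHB2 level. Of the A class, EPHA10, another receptor without kinase activity, had 14, 47 and 63 counts, at ratios of 2.84 (1.54 to 5.58) and 3.96 (2.19 to 7.65). EPHA1 had 655, 1128 and 458 counts (log2 folds 0.54 and −0.70) and EPHA4 216, 180 and 222 (−0.50 and −0.14). EPHA1 overlaps ZYX on the opposite strand, which had 3013, 2626 and 2690 counts.

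**Figure D3:**
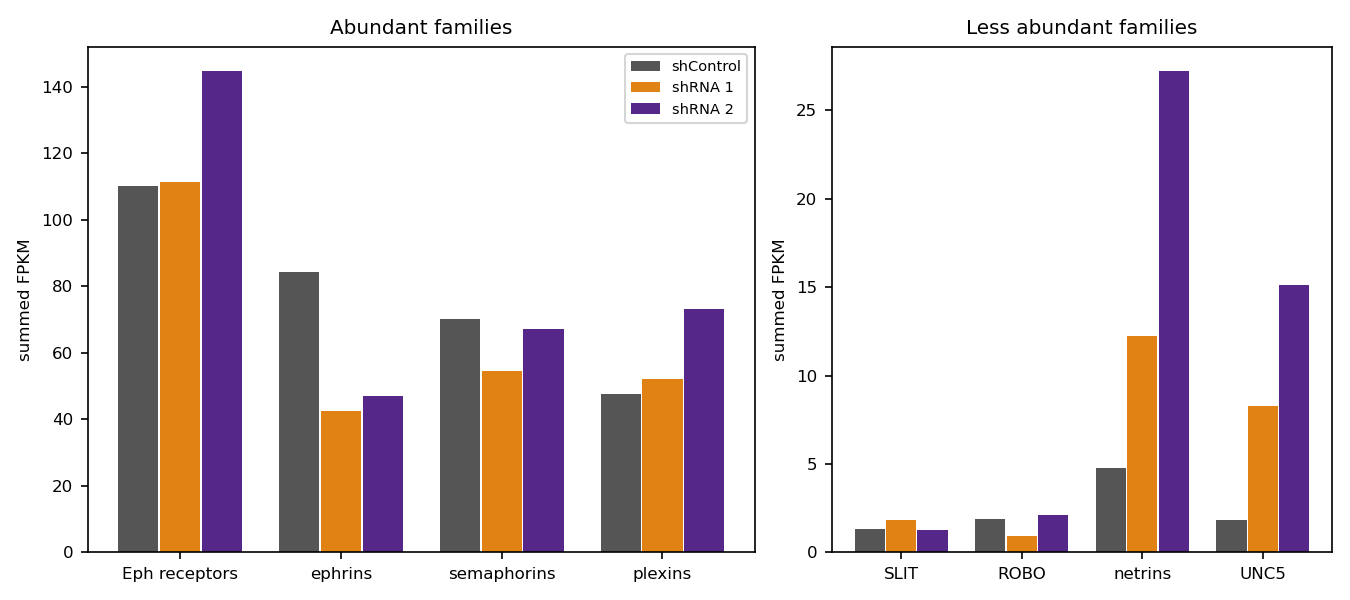
Summed FPKM of each family (vertical axis) in the 3 libraries, as bars from 0, with 1 library per bar and no error, on separate scales for the 4 abundant families (left) and the 4 less abundant families (right). Ephrins stand at 84.3 in the control and at 42.4 and 46.9 with the hairpins, netrins at 4.79, 12.3 and 27.2, and UNC5 receptors at 1.85, 8.29 and 15.1.

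The secreted class 3 semaphorins included the member with the largest higher fold. SEMA3D (ENSG00000153993; chromosome 7, 84995553 to 85186855, minus strand), which guides axons and vessels, had 36, 562 and 501 counts. Its level was 13.2-fold higher (counting interval 9.41 to 19.0) and 12.2-fold higher (8.72 to 17.7). Over both hairpins the log2 fold averaged 3.60 ± 0.08 (SD, n = 2), and the adjusted p was 0.0766 with edgeR and 2.03e-07 with DESeq2, in a range of 2.03e-07 to 0.747 over the alternatives. SEMA3A, the founding repellent of the class, had 80, 353 and 274 counts (log2 folds 1.88 and 1.57, edgeR adjusted p 0.264). Both hairpin libraries were above the control for both genes.

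The other class 3 members were higher with shRNA 2 or stood near the control there. SEMA3F, a ligand of NRP2, had 551, 1088 and 1431 counts, with log2 folds of 0.74 and 1.19. SEMA3B had 194, 245 and 1195 counts, so that the shRNA 1 library lay at the control (ratio 1.07, counting interval 0.880 to 1.30) and the shRNA 2 library at 5.42 times it (4.65 to 6.34). SEMA3E, a ligand of PLXND1, had 17, 19 and 57 counts. SEMA3C, the most abundant of the class, had 2732, 1603 and 2899 counts, and was 2.02-fold lower with shRNA 1 alone (log2 fold −1.01, or −0.87 with library totals). SEMA3F and SEMA3B lie 78.5 kb apart on chromosome 3, and SEMA3E, SEMA3A and SEMA3D follow each other on chromosome 7 at 307 and 503 kb.

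Of the measured semaphorins anchored in the membrane, SEMA7A and SEMA5A stood 2-fold or more below the control with both hairpins. SEMA7A (ENSG00000138623; chromosome 15, 74409289 to 74434467, minus strand), the lipid-anchored semaphorin, had 2665, 904 and 1089 counts. The ratios to the control were 0.287 (counting interval 0.266 to 0.309) and 0.359 (0.335 to 0.386), at a mean log2 fold of −1.64 ± 0.23 (SD, n = 2), with an adjusted p of 0.156 by edgeR and 0.0116 by DESeq2 (0.0116 to 0.747 over the alternatives). SEMA5A (ENSG00000112902; chromosome 5, 9035026 to 9546075, minus strand), a transmembrane semaphorin that can bind PLXNB3, had 901, 368 and 132 counts, 2.90-fold and 7.76-fold lower, with an edgeR adjusted p of 0.292. All 6 measured class 4 semaphorins and all 3 measured class 6 semaphorins were within 2-fold with both hairpins, as were 73.5% of all genes tested. The class 4 member SEMA4D, the ligand of PLXNB1, had 1431, 1446 and 1270 counts and log2 folds of −0.23 and −0.36, and SEMA4C and SEMA4F had −0.45 and −0.44 and −0.36 and −0.37. SEMA4B had 971, 1985 and 884 counts and SEMA6B, which led class 6, had 316, 554 and 323.

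Plexins, the semaphorin receptors, lay on both sides of the control. PLXND1 (ENSG00000004399; chromosome 3, 129555175 to 129606818, minus strand), a receptor known from vessel patterning, had 1044, 291 and 361 counts. It stood 4.25-fold below the control with shRNA 1 (ratio 0.236, counting interval 0.206 to 0.268) and 3.29-fold below it with shRNA 2 (0.304, 0.269 to 0.343), at a mean log2 fold of −1.89 ± 0.26 (SD, n = 2). The adjusted p was 0.134 by edgeR and 0.00756 by DESeq2, in a range of 0.00756 to 0.747 over the alternatives. Endothelial markers summed to 0.793, 0.455 and 1.11 FPKM in the 3 libraries, against 4.22, 1.09 and 1.48 FPKM for PLXND1. Of these markers TIE1 (55, 10 and 12 counts), ERG (29, 3 and 12) and TEK (8, 4 and 5) were lower with both hairpins. CDH5 (18, 42 and 66), CLDN5 (2, 5 and 15) and VWF (2, 4 and 13) were higher with both. KDR had 13, 4 and 41 counts and PECAM1 4, 9 and 4. The part of these markers in the result was not tested. PLXNB2, the most abundant plexin, had 5237, 7266 and 8252 counts and ratios of 1.17 and 1.39, and made 56.0%, 66.3% and 58.3% of plexin FPKM. PLXNB1 had 664, 1254 and 2132 counts (log2 folds 0.673 and 1.495).

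PLXNB1, PLXNA2 and PLXNB3 were at least 2-fold above the control with shRNA 2 alone. PLXNA2, a receptor for class 3 and class 6 semaphorins, had 456, 496 and 1782 counts, and its shRNA 1 library did not differ from the control beyond counting error (ratio 0.919, 0.808 to 1.05). PLXNB3 had 112, 75 and 302 counts. PLXNA4 was the 1 plexin lower by 2-fold with shRNA 2 alone (295, 227 and 131 counts). PLXNA1 and PLXNA3 stayed within 2-fold, at log2 folds of −0.60 and −0.16 and of 0.15 and 0.17, as did PLXNC1, the receptor of SEMA7A, with 16, 35 and 28 counts. PLXNC1 overlaps CEP83 on the opposite strand (134, 563 and 451 counts), so its reads are uncertain.

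SLIT2 and SLIT3, secreted ligands of the same receptors, stood on opposite sides of the control. SLIT3 (ENSG00000184347; chromosome 5, 168661733 to 169301129, minus strand) had 309, 59 and 25 counts, at ratios of 0.161 (counting interval 0.120 to 0.214) and 0.0712 (0.0453 to 0.107) to the control. SLIT2 (ENSG00000145147; chromosome 4, 20253260 to 20620561, plus strand) had 111, 445 and 274 counts, and was 3.39-fold higher (2.75 to 4.21) and 2.17-fold higher (1.74 to 2.73). The mean log2 folds were −3.15 ± 0.79 and 1.42 ± 0.45 (SD, n = 2), with edgeR adjusted p values of 0.156 and 0.386. The FPKM of SLIT2 was 0.5, 10.5 and 15.2 times that of SLIT3, while the summed SLIT level of 1.34, 1.84 and 1.27 FPKM differed by less.

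The ROBO receptors were at low levels, with sums of 1.88, 0.915 and 2.13 FPKM. ROBO4, the endothelial member, had 155, 39 and 152 counts, at log2 folds of −2.17 and −0.21, and FPKM of 0.858, 0.201 and 0.852 beside the 0.793, 0.455 and 1.11 of the summed endothelial markers. ROBO3, which lies 2.22 kb from ROBO4 on chromosome 11, had 219, 155 and 301 counts. ROBO1, the broadly expressed SLIT receptor, had 62, 57 and 44 counts (log2 folds −0.35 and −0.66), and ROBO2 had 0 counts in every library.

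Netrins and UNC5 receptors had the largest hairpin-to-control ratios of summed FPKM among the families. NTN4 (ENSG00000074527; chromosome 12, 95657807 to 95791152, minus strand), a netrin of basement membranes that binds laminin, had 220, 980 and 1801 counts. Its level was 3.76-fold higher (counting interval 3.25 to 4.38) and 7.20-fold higher (6.26 to 8.32), at a mean log2 fold of 2.37 ± 0.66 (SD, n = 2), with an adjusted p of 0.180 by edgeR and 0.000566 by DESeq2 (0.000566 to 0.747 over the alternatives). NTN1, the classical netrin, lay below the control in 1 hairpin library and above it in the other. Its 191, 46 and 335 counts gave ratios of 0.204 (0.144 to 0.282) and 1.54 (1.29 to 1.85), with an edgeR adjusted p of 0.974.

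UNC5A (ENSG00000113763; chromosome 5, 176810477 to 176880895, plus strand), a netrin receptor with a death domain, had 64, 562 and 753 counts. The level was 7.42-fold higher (counting interval 5.72 to 9.77) and 10.3-fold higher (8.01 to 13.6). Over both hairpins the log2 fold averaged 3.10 ± 0.34 (SD, n = 2), and the adjusted p was 0.0917 with edgeR and 5.31e-06 with DESeq2, in a range of 5.31e-06 to 0.747 over the alternatives. UNC5B had 93, 191 and 605 counts, at ratios of 1.74 (1.35 to 2.25) and 5.72 (4.59 to 7.20). Its antisense gene UNC5B-AS1 had 8, 3 and 63 counts, so the reads of UNC5B are uncertain. UNC5C, a further receptor of the family, had 40, 11 and 2 counts, at ratios of 0.232 (0.108 to 0.461) and 0.0440 (0.00515 to 0.170). The 3 measured UNC5 genes thus had hairpin levels on different sides of the control, UNC5A and UNC5B above it and UNC5C below it.

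Promoter windows are shown for the members furthest from the control in each direction whose window overlaps no annotated exon, and for EFNB2 as an ephrin whose window meets the same condition. Each is the 250 bases before the RefSeq start on GRCh38.p14, printed 5′ to 3′ on the gene's strand. Capitals mark any match, on either strand, to TGANTCA (the AP-1 site), GGAATG (the TEAD site), CAGGTG (an E-box bound by Snail and ZEB factors), GGGCGG (the GC box of SP1) or TATAAA, and no 2 motifs overlapped in these windows.
SEMA3D (chr7:85187057-85187306, minus strand): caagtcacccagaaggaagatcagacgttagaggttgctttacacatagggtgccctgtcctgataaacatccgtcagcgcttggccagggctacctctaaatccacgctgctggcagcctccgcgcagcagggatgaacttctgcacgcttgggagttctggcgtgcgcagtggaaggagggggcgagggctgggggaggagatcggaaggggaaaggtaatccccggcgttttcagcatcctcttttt
NTN4 (chr12:95791156-95791405, minus strand): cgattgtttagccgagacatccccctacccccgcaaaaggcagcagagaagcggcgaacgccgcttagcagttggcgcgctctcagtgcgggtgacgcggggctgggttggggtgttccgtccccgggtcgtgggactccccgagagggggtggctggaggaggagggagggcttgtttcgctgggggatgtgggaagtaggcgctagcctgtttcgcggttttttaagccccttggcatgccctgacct
EPHB1 (chr3:134795010-134795259, plus strand): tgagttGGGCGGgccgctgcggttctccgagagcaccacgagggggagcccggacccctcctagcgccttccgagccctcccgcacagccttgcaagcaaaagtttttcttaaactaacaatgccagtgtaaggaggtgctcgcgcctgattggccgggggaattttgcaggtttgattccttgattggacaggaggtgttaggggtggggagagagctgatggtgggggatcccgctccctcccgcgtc
SLIT3 (chr5:169301140-169301389, minus strand): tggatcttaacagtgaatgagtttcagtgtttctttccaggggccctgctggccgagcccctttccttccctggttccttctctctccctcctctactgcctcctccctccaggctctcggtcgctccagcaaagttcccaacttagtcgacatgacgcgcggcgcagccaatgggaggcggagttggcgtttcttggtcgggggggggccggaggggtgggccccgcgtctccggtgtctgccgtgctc
EFNB2 (chr13:106535663-106535912, minus strand): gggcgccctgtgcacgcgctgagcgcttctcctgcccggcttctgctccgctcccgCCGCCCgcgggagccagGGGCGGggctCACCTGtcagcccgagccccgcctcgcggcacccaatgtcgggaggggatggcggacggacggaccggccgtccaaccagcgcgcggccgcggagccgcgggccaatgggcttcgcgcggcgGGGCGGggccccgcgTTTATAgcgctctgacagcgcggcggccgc

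None of these letters was found in the windows of SEMA3D, NTN4 and SLIT3. EPHB1 had 1 GGGCGG, and EFNB2 had 3, with 1 CAGGTG and 1 TATAAA. The start used for EPHB1 lies inside the deposited span of the gene. Of the measured members 45 had a RefSeq entry of full length. GGGCGG was present in 34 of them and in 42.3% of all 27305 windows, and the median base composition was 65.6% G and C in the members and 58.0% in all windows. CAGGTG was present in 7 of the 45 (17.5% of all), GGAATG in 3 (11.9%), TGANTCA in 1 (6.6%) and TATAAA in 1 (11.1%). These matches describe letters and not binding.

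The hairpin libraries were set against each other to show which members differed between them. For 9 of the 52 measured members the counting interval of the ratio lay wholly beyond 2-fold, 7 higher with shRNA 2 and 2 higher with shRNA 1, against 4.91% and 2.02% of all genes. NTN1 was 7.58-fold higher with shRNA 2 (counting interval 5.56 to 10.6), SEMA3B 5.08-fold (4.42 to 5.85), PLXNB3 4.19-fold (3.24 to 5.47), ROBO4 4.06-fold (2.84 to 5.93), PLXNA2 3.74-fold (3.38 to 4.14) and UNC5B 3.30-fold (2.80 to 3.90), followed by EFNB1. SEMA5A was 2.68-fold higher with shRNA 1 (2.19 to 3.29) and EPHA1 2.37-fold (2.12 to 2.64). By contrast SEMA3D (ratio 0.928, 0.821 to 1.05), SEMA4C (1.01, 0.904 to 1.13) and PLXNA3 (1.01, 0.915 to 1.12) had intervals that included equal levels. These intervals cover counting error only, and with 1 library per hairpin no test of the difference is possible.

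**Figure D4:**
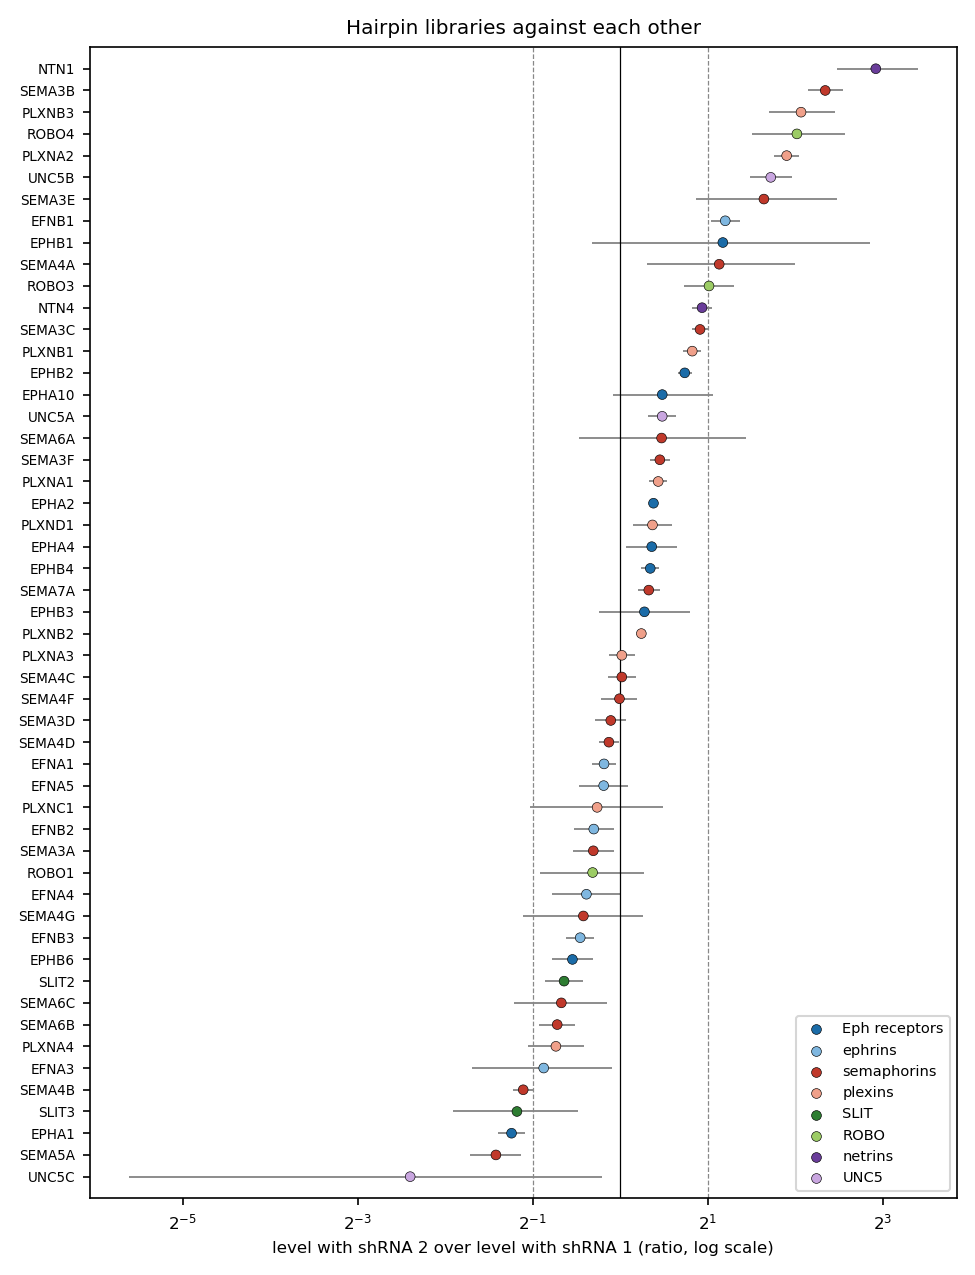
Level with shRNA 2 divided by level with shRNA 1 (horizontal axis, log scale) for the 52 measured members, coloured by family, with 95% counting intervals as lines, equality as a solid line and 2-fold as dashed lines. NTN1 stands at 7.58 and SEMA3B at 5.08 at the top, and UNC5C at the bottom (0.189, interval 0.0204 to 0.867) has the widest interval.

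The 14 members under the filter had at most 29 counts in any library. EPHA3, EPHA7 and ROBO2 had 0 counts in all 3, which allows up to 0.198, 0.168 and 0.174 scaled CPM in the control, shRNA 1 and shRNA 2 libraries (3 counts each). SEMA6D, which overlaps an antisense gene with more counts than its own, had 3, 29 and 19 counts, and SEMA5B had 13, 0 and 5. SLIT1 had 3, 8 and 16 counts and NTN3 6, 7 and 22. EPHA5, EPHA8 and NTN5 were at 0 in the control and at 7 counts or fewer elsewhere, EPHA6 had 9, 17 and 24, EFNA2 4, 0 and 1, SEMA3G 2, 1 and 0, and UNC5D 5, 2 and 2.

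Co-receptors and effectors of these pathways, taken from a list outside the members, are given beside the same shares of all genes tested. Of 18 listed co-receptors and alternative ligands 13 were measured, 2 lower and 1 higher by at least 2-fold with both hairpins (4.50% and 5.29% of all genes), and 7 were within 2-fold with both (73.5% of all genes). FLRT2, a ligand of UNC5 receptors, had 265, 24 and 24 counts (log2 folds −3.59 and −3.54), the neuropilin NRP2 had 870, 182 and 267, and RGMA, a ligand of neogenin, had 17, 70 and 139. The netrin receptor gene DCC had 0 counts in every library. L1CAM, an adhesion molecule of axons, was the most abundant of this list, at 42.4, 42.4 and 64.6 FPKM (scaled ratios to the control 0.907 and 1.32). Of 36 cytoplasmic effectors 35 were measured, 1 lower and 1 higher with both, and 21 were within 2-fold with both. DPYSL3, a collapsin response mediator, had 14274, 5570 and 1883 counts (−1.60 and −3.11), and SRGAP3, a ROBO-binding GTPase activator, had 120, 1052 and 709 (2.87 and 2.36). RHOD, a GTPase that binds plexins, had 48.0, 41.2 and 90.9 FPKM, and DPYSL3 73.1, 26.5 and 9.77. The list medians were 0.03 and −0.12 for the co-receptors and −0.19 and −0.08 for the effectors, beside 0.01 and 0.04 for all genes. None of either list passed edgeR's adjusted test, while 3 and 4 had an unadjusted p below 0.05 (10.2% of all genes), and 2 of each passed with DESeq2 (3.65%).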

How the data were processed

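PolyA+ RNA of 3 UM-UC-3 libraries was sequenced from stranded mRNA libraries, per the labels' protocols. The authors deposited whole-number counts and FPKM values per gene, 1 column of each per library. The submitters' processing notes name TopHat2 2.0.9 and hg38. The counting tool and its strand setting were not given in the sources used here. For 17 members an overlapping gene had at least 10% of their counts in some library, so their reads are uncertain. They include PLXNA3, PLXNB3, SEMA4G, SEMA6A, UNC5B and UNC5C besides the overlaps named in the Results. The row of TGFB1 was broken over 4 lines and left out, which left 50867 genes. Strands and gene types came from GENCODE release 29 by identifier, and positions from the deposited table.

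Counts of the 15132 genes that averaged 1 CPM or more were scaled by TMM factors (edgeR 4.0.16). Log2 folds over the control used a prior count of 2. FPKM, which the authors scaled by their own library totals, was used for levels between genes, in family sums and for the levels of some genes by library. Folds, intervals and calls came from counts and not from FPKM. Both hairpin libraries were tested against the control with edgeR's quasi-likelihood test, two-sided, Benjamini-Hochberg adjusted over all genes tested, with 1 residual degree of freedom that measures the spread between the hairpin libraries, the lone control being assumed to vary like them. Intervals are exact conditional binomial intervals at 95%, and they and the floor of 3 counts cover counting error only. The fit was tested on simulated data in which both hairpin libraries had the same folds. That simulation does not show how the p-values behave where the hairpins differ. DESeq2 1.42.0 and limma 3.58.1 were alternatives. Members and lists were chosen with earlier results of these data known. Members were named when at least 2-fold away with either hairpin or of highest FPKM in their family, and others to account for all members. Listed genes were named when at least 2-fold away with both hairpins or of high FPKM.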

Additional observations from a re-analysis of the deposited data

How the results depend on the processing

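With DESeq2's size factors the counts of members at least 2-fold lower (9) and higher (6) were the same as with TMM. Library totals as the scaling shifted log2 folds by a median of 0.137 with shRNA 1 and 0.204 with shRNA 2. They left 7 members lower (EPHB2 and EFNB2 fell short) and 6 higher, and took EPHB3, EFNA3, EFNA5, EFNB3 and SEMA3C under 2-fold with the hairpin that had passed. The members' median became −0.22 with shRNA 1 and 0.0163 with shRNA 2, beside 0.142 and 0.244 for all genes. With shRNA 2 the sign of the members' median against the control thus depended on the scaling. It lay below the median of all genes both with TMM and with library totals. The plexin A and class 6 semaphorin medians with shRNA 2 also changed sign with the scaling. Among the folds of members past 2-fold, recomputed under the other scalings, filters and the prior count of 0.5, 311 values moved by less than the spread between the hairpins, and 7 moved by more, all with library totals (EPHB3, EFNA1, EFNA5 and SEMA3D). No fold past 2-fold changed sign, while 3 folds near 0 did with library totals, PLXNA2 (−0.12 to 0.0159) and SEMA3E (−0.07 to 0.0495) with shRNA 1 and SEMA3C (−0.10 to 0.105) with shRNA 2. Without a filter SEMA6D joined the higher members and EFNA2 and SEMA5B the lower ones. On 1 hairpin library alone the lower count was 14 to 15, the higher count 6 to 13 and the LINC00958 log2 fold −0.44 to −0.01, with no test possible. Genes passing the group test numbered 6 with edgeR, 0 without the filter, 0 with the filter at 5 CPM, 0 with limma and 531 with DESeq2, and members passing numbered 0 with edgeR and limma and 8 with DESeq2. No paired analysis was possible because the control has 1 library, whose label carries no replicate number.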
